A study of Mus musculus with 2 samples.

Results

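The Sox2 locus was examined for peaks of POU5F1, also called OCT4, within 150 kb on each side of the transcript start of Sox2. The peaks came from chromatin immunoprecipitation with an antibody against POU5F1, followed by sequencing (ChIP-seq), in E14TG2a.4. This line of embryonic stem cells is from a male mouse of strain 129/Ola, labelled embryonic in stage. There was 1 group, with 2 biological replicates that derive from the same line and donor, and no other genotype, treatment or control was analysed here. Members were all peaks whose centre lay in that window: 4 of 5515 in the whole-series list on genome build mm9, 2 of 1330 in the list of replicate 1, 5 of 6324 in the list of replicate 2, and 3 of 3994 and 3 of 2676 in the optimal and conservative lists on mm10. Merged by overlap, these made 5 sites on mm9 and 4 on mm10. Read depth is unknown, each list gives 1 value per peak, and no contrast between groups exists, so the values below are descriptions with no test.

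SOX2 is a transcription factor with an HMG box that binds DNA next to POU5F1 at composite elements, a SOX site followed by an octamer, and both are needed to keep embryonic stem cells undifferentiated. Sox2 has a single exon and lies inside Sox2ot, a long non-coding RNA gene on the same strand. In mouse embryonic stem cells Sox2 is known to depend on a distal control region far downstream of the gene, and shorter enhancers are known close to the gene on either side. POU5F1, SOX2 and NANOG are known to bind each other's regulatory regions.

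On mm9, Sox2 (ENSMUSG00000074637.3) lies at chr3:34548927-34551383 on the plus strand. It was the only protein-coding gene in the window. The nearest protein-coding starts were those of Dnajc19, 568.7 kb upstream, and Atp11b, 1104.1 kb downstream. The window also held Sox2ot and the microRNA genes Mir1897 and AC137708.1. On mm10 the start was at position 34649995 of chromosome 3, and the RefSeq annotation of that assembly (GRCm38) added the long non-coding RNA genes Gm42205, Gm34941, Gm3143 and Gm38509.

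The sequences at the centres of 3 whole-series peaks, one on each flank of the gene and one in the distal control window, are shown first, because the sites differ in the POU and SOX motifs they hold. Each is 150 bases of NCBIM37 (mm9), plus strand, read 5′ to 3′. Capitals mark a match to the composite element with up to 2 mismatches, to the octamer ATGCAAAT with up to 1 mismatch, or to the SOX site (AACAAAG or AACAATG), on either strand.
Upstream site, chr3:34545272-34545421: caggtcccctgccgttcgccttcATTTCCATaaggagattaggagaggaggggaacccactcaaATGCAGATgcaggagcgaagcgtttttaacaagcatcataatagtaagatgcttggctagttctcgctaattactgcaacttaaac
Proximal downstream site, chr3:34552892-34553041: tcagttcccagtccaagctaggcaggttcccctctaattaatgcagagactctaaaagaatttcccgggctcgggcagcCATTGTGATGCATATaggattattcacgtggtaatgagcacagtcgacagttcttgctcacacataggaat
Distal site, chr3:34656955-34657104: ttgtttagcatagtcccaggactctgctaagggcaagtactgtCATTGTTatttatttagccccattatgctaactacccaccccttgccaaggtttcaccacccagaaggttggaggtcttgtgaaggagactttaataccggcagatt

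For the fourth whole-series peak, 18.5 kb downstream, the exact octamer lay away from the centre, so 108 bases around it are given in the same way; the capitals are the octamer read on the plus strand.
Site 18.5 kb downstream, chr3:34567181-34567288: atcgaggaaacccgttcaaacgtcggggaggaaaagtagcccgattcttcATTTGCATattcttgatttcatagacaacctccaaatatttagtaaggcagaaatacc

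Within 150 kb of the Sox2 start, the POU5F1 peaks of highest signal in each list were at 2 sites, both downstream of the gene. They were the only sites of the window present in all 5 lists. These lists all derive from the same 2 replicates, so they are not independent observations. The stronger, termed the proximal downstream site, was centred 4.0 kb from the start on mm9, beyond the end of the gene and in an intron of Sox2ot. The other, termed the distal site, was centred 108.1 kb from the start, between annotated genes and inside the distal control window, set as the 20 kb that begin 95 kb downstream.

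At the proximal downstream site (mm9 chr3:34552709-34553225, 517 bp) the deposited signal, whose scaling is not stated, was 15.55 in the list of replicate 1, 30.99 in that of replicate 2 and 19.09 in the whole-series list. It ranked 33 of 1330, 44 of 6324 and 35 of 5515, so that 2.78%, 0.712% and 0.653% of the peaks of each list had a signal at or above it. Its signal was 2.27, 3.73 and 3.42 times the median of those lists. The site was thus near the top of every list, whichever replicate was used. Its deposited −log10 p was 41.297, 98.091 and 102.524 in the same lists, which ranked it 40, 63 and 48.

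At the distal site (mm9 chr3:34656822-34657238, 417 bp) the signal was 6.84 in the list of replicate 1, 21.16 in that of replicate 2 and 11.16 in the whole-series list. It ranked 665 of 1330, 160 of 6324 and 253 of 5515. Many peaks of replicate 1 share the same signal, and 63.9% of that list had a signal at or above it, against 2.88% and 5.04% of the others. The distal site was therefore at the median of the short replicate 1 list, at 1.0 times, and above the median of the others, at 2.54 and 2.0 times. The deposited −log10 p was 6.352 in replicate 1, with a q-value of 0.0537. It was 42.281 in replicate 2 and 38.771 in the whole-series list, both with a listed q-value of 0. By −log10 p the distal site ranked lower than by signal, at 931 of 1330, 419 of 6324 and 442 of 5515.

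Within each list the distal site was the weaker of the pair. Its signal was 0.44 times that of the proximal downstream site in replicate 1, 0.683 times in replicate 2 and 0.585 times in the whole-series list on mm9. In the relaxed mm10 lists, which hold 300000 entries of peaks and background each, the ratio was 0.349 in replicate 1, 0.571 in replicate 2 and 0.503 with both pooled. The order of the sites was the same in both replicates and on both builds, which hold the same 2 replicates. The size of the gap differed between the replicates. With 2 replicates this difference between them was not tested.

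**Figure D1:**
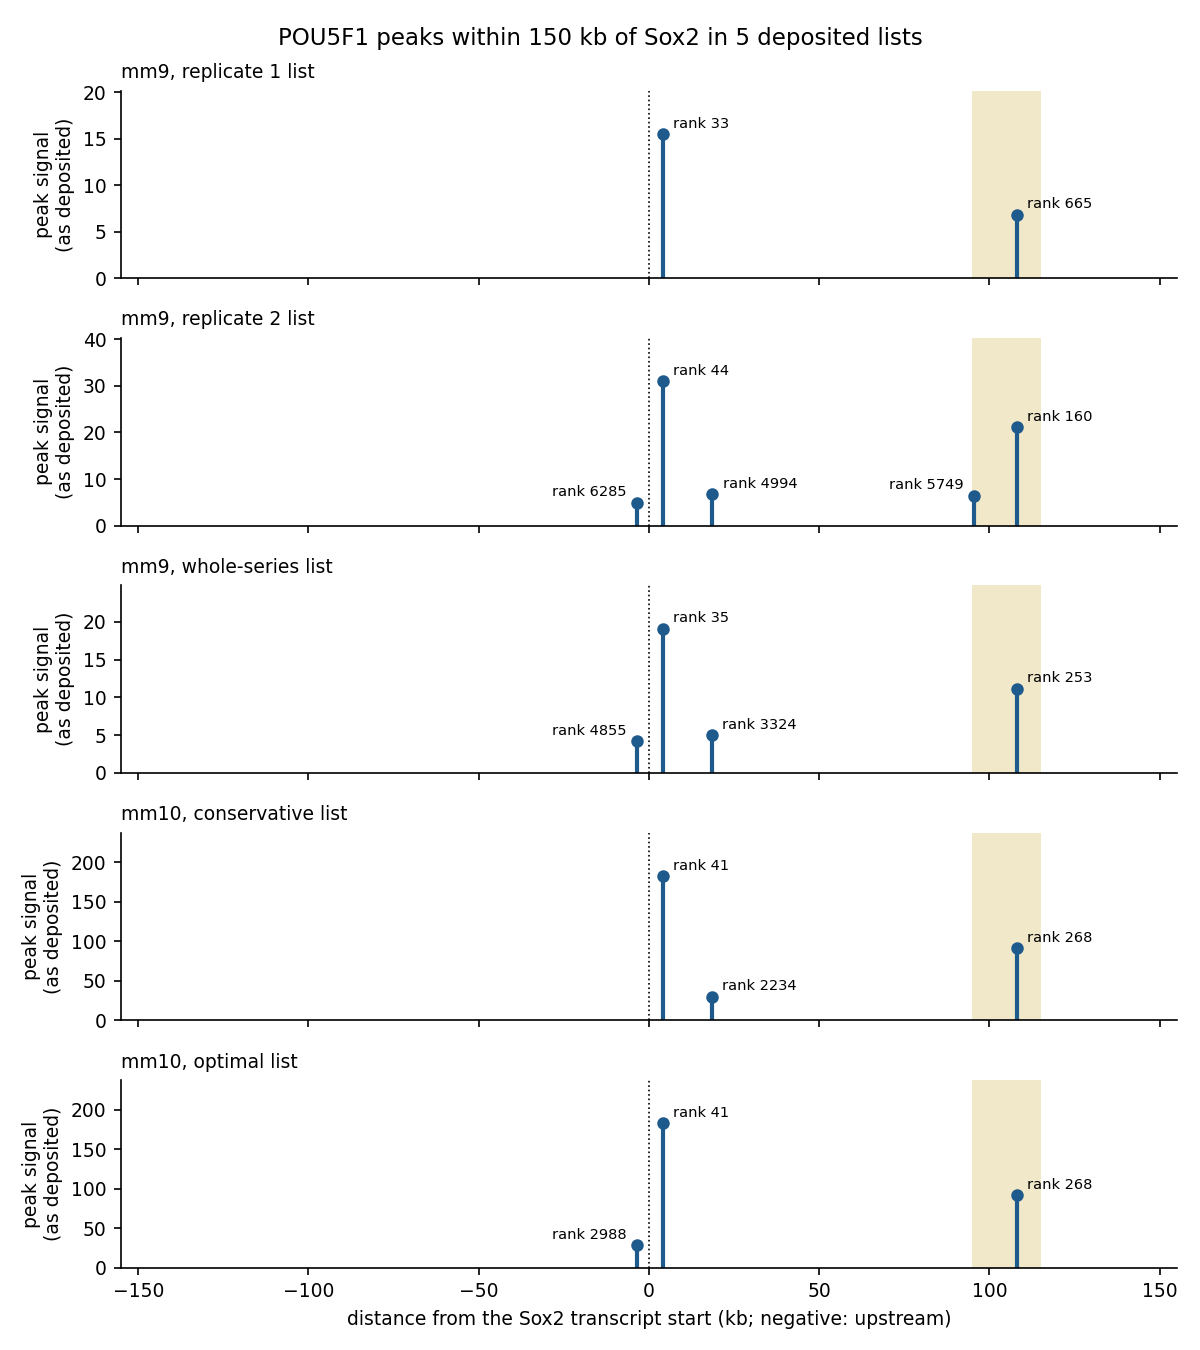
Deposited peak signal (vertical axis, with its own scale in each panel) against distance from the Sox2 transcript start in kb (horizontal axis), for the 3 mm9 lists and the 2 mm10 lists. Each stem is 1 peak with its rank by signal in its list, the dotted line is the start and the shaded band is the distal control window. The peaks at 4.0 to 4.1 kb (ranks 33 to 44) and 108.0 to 108.1 kb downstream appear in every panel, and no peak lies within 1 kb of the start.

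The remaining mm9 sites were weak and were found in the list of replicate 2 but not in that of replicate 1. The upstream site, 3.6 kb before the start and in an intron of Sox2ot (chr3:34545178-34545517), had a signal of 4.93 in replicate 2, ranked 6285 of 6324, and 4.24 in the whole-series list, ranked 4855 of 5515. The site 18.5 kb downstream, also in an intron of Sox2ot (chr3:34567185-34567669), had a signal of 6.8 in replicate 2, ranked 4994, and 4.99 in the whole-series list, ranked 3324. Both were below the median signal of their lists, at 0.593 to 0.894 times.

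Ranked by −log10 p instead of signal, the site 18.5 kb downstream stood higher in the whole-series list, at 1946 of 5515 with 14.836. In replicate 2 it ranked 5226 of 6324 with 6.022 and a q-value of 0.0506. The upstream site ranked above it there, at 4545 with 7.053 and a q-value of 0.022. In the whole-series list the upstream site ranked 4525 with 6.519 and a q-value of 0.0043. The peak called at the site 18.5 kb downstream also differed in extent, at 485 bp in the whole-series list and 205 bp in replicate 2. Its centres lay 79 bp apart. For the other 3 whole-series peaks the centre in the replicate 2 list lay within 4 bp.

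The fifth site, 95.6 kb downstream at the near edge of the distal control window (chr3:34644407-34644628), was listed for replicate 2 alone. Its signal there was 6.45, ranked 5749 of 6324, with a −log10 p of 5.776 and a q-value of 0.0647. It lay between annotated genes and was not in the whole-series list. The distal control window thus held 2 peaks in replicate 2 and 1 in each of the other 4 lists.

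Of the 4 whole-series peaks, 2 overlapped a peak of both replicate lists by at least 1 bp, the proximal downstream and the distal site. Over all 5515 whole-series peaks this share was 21.9%. The other 2 overlapped a peak of replicate 2 only. The share of all whole-series peaks found in replicate 2 only was not counted. The list of replicate 1 is the shorter, at 1330 peaks against 6324, so a peak missing from it need not be unusual.

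On mm10 the 2 strong sites recurred at nearly the same distances from the start, and each threshold list added 1 further site, a different one in each. The proximal downstream peak (mm10 chr3:34653947-34654153) had its summit 4052 bp from the start, a signal of 182.8 and rank 41 in both the optimal and the conservative list. The distal peak (mm10 chr3:34757938-34758273) had its summit 108111 bp from the start, a signal of 92.0 and rank 268 in both. It lay between the annotated ends of Gm3143 and Gm38509. Both peaks carried the same score, 1000, and the same −log10 q, 3.58, although their signals differed. How many peaks of these lists share that score was not counted. Coordinates were not converted between builds, so sites were set side by side only by their distance from the start.

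The remaining peak of the optimal list was the upstream site, 3.6 kb before the start (mm10 chr3:34646235-34646570), with a signal of 29.0, rank 2988 of 3994 and a score of 891. The conservative list lacked it and held instead the site 18.5 kb downstream (mm10 chr3:34668324-34668659), with a signal of 30.1, rank 2234 of 2676 and a score of 749. That peak was absent from the longer optimal list, although its signal was the higher of the pair. It was 1 of 239 conservative peaks, of 2676, that overlapped no optimal peak.

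In the relaxed mm10 lists these 2 weak sites differed in how the replicates ranked them. The site 18.5 kb downstream had a signal of 13.4 and rank 3160 in replicate 1, and 16.9 and rank 4136 in replicate 2. The upstream site had a signal of 9.35 and rank 32219 in replicate 1, and 19.0 and rank 3351 in replicate 2. Against the 3994 peaks of the optimal list, the site 18.5 kb downstream thus ranked within that length in replicate 1 only, and the upstream site in replicate 2 only. With both replicates pooled their ranks were 3007 and 3180.

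The strong sites ranked far inside that length in either replicate. The proximal downstream site ranked 36 in replicate 1 (signal 65.5) and 52 in replicate 2 (signal 113.1), with summits 4054 and 4059 bp from the start. The distal site ranked 565 in replicate 1 (signal 22.9) and 248 in replicate 2 (signal 64.5), with summits 108080 and 108109 bp from the start.

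**Figure D2:**
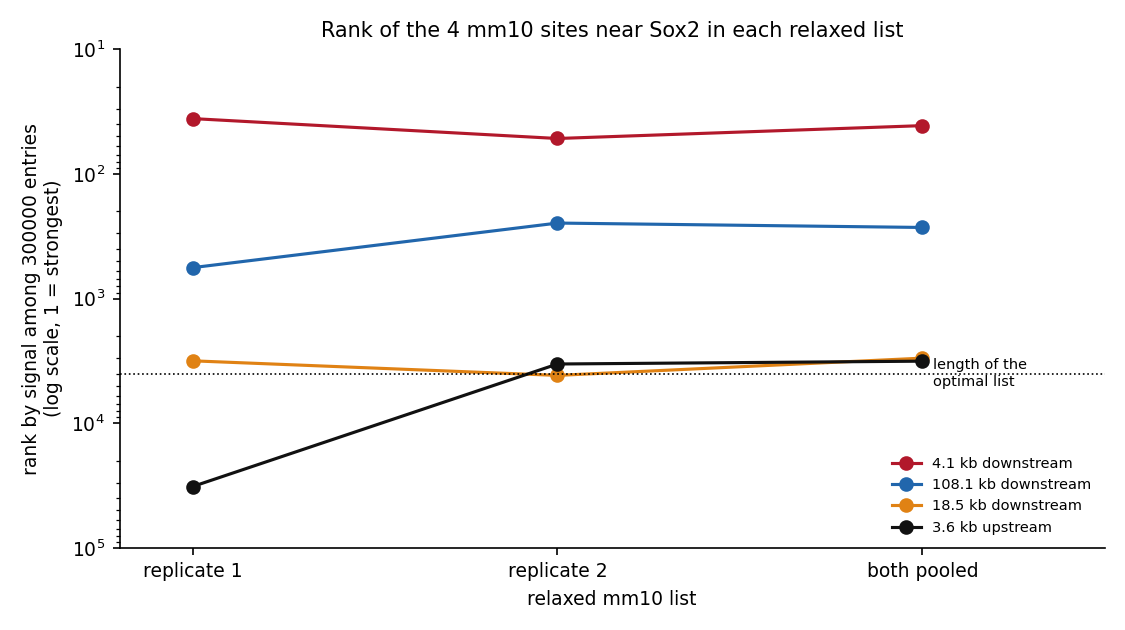
Rank by signal (vertical axis, log scale, 1 at the strongest) of the 4 mm10 sites near Sox2 among the 300000 entries of the relaxed list of replicate 1, of replicate 2 and of both pooled (horizontal axis). The dotted line is the length of the optimal list, 3994. The site 4.1 kb downstream stays between ranks 36 and 52 and the distal site between 248 and 565, while the site 3.6 kb upstream ranks 32219 in replicate 1 and 3351 in replicate 2.

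**Figure D3:**
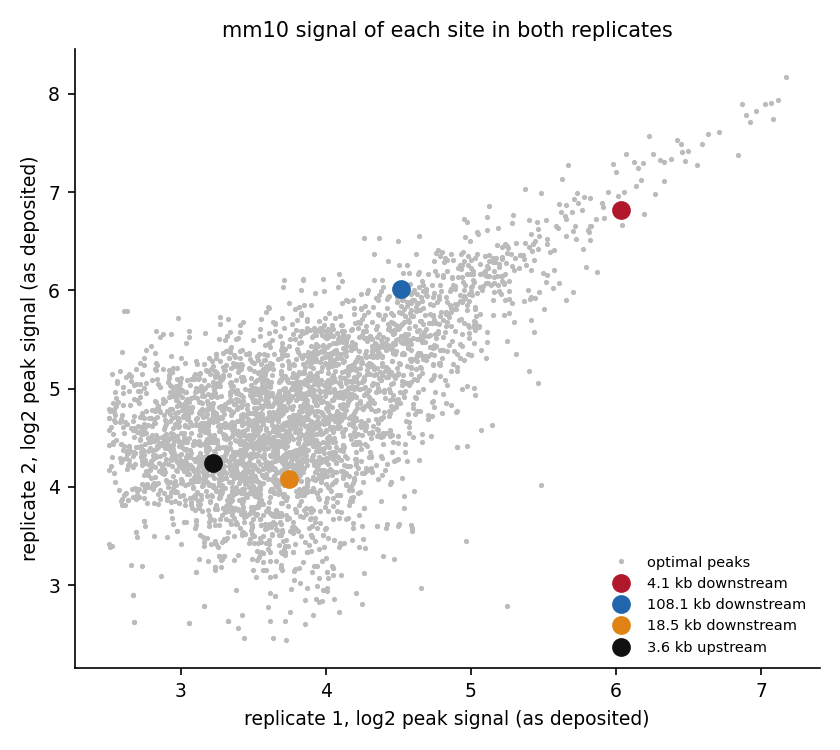
Log2 of the deposited mm10 signal in replicate 2 (vertical axis) against replicate 1 (horizontal axis). Grey points are the 3704 optimal peaks that overlap an entry of both relaxed lists, and coloured points are the 4 sites near Sox2. The proximal downstream site has signals of 65.5 in replicate 1 and 113.1 in replicate 2, and the distal site 22.9 and 64.5. The scaling of the signal is not stated, so the axes may differ in scale. The site 18.5 kb downstream is not an optimal peak.

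The site 95.6 kb downstream was also seen on mm10, in the relaxed list of replicate 2, with a signal of 17.1. It ranked 4029 there, just beyond the length of the optimal list, and 8164 with both replicates pooled. In replicate 1 no relaxed entry overlapped it.

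No POU5F1 peak lay within 1 kb of the Sox2 start in any of the 5 lists. Among 22367 protein-coding genes of the mm9 annotation, 1.51% had a whole-series peak that close. Sox2 had a peak 1 to 10 kb downstream, as did 2.63% of genes, and peaks on both flanks at 1 to 10 kb, as did 0.165%. The peak on the upstream flank was the weak one, and it was missing from the replicate 1 and conservative lists. With the distal control window laid at the same distances from each gene start, 5.18% of genes had a whole-series peak in it, and 0.143%, or 32 genes including Sox2, had one there and another 1 to 10 kb downstream. The mirror window, at the same distances upstream, held 0 peaks in all 5 lists, which share the same 2 replicates. The share of genes with a peak in their mirror window was not counted. With 5.18% of genes holding one in the downstream window, an empty window of this size is the usual case. The zones were chosen for Sox2, with earlier results of these data known. The low shares of genes are therefore no test of how unusual Sox2 is.

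The distance of the distal site from a protein-coding start was not unusual among peaks. Of the 5515 whole-series peaks, 23.7% (1306) lay at least as far from every such start, and 66 of these had a signal at or above the 11.16 of the distal site.

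Beyond the window the next whole-series peak lay 178.7 kb downstream of the start, with a signal of 9.98 and rank 389, which is close to that of the distal site. It was also found on mm10, at 178.7 kb, with a signal of 83.7 and rank 342 in the optimal and conservative lists. The mm9 list of replicate 1 lacked it, and the next peak downstream there lay at 767.4 kb with a signal of 8.71, whereas the distal site was in that list. The next whole-series peak upstream was 491.6 kb away, with a signal of 3.97. In replicate 2 a peak of signal 6.05 lay just outside the limit, at 151.1 kb downstream. Within the 150 kb upstream of the start, the peak at 3.6 kb was the only one in any of the 5 lists.

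The composite element was found in 1 of the 4 whole-series peaks. The proximal downstream peak held the match CATTGTGATGCATAT at chr3:34552971-34552985 on the plus strand, 11 bp from the peak centre. It differed from the consensus at Y7G in the SOX part and A13T in the octamer part, with positions counted from 1 at the 5′ end of the element. Its octamer part is also the one octamer match with up to 1 mismatch in this peak, so the pair is a single stretch of sequence. Windows of the same length, 517 bp, around all 5515 peak centres held a composite match in 10.1% of cases, against 0.236% of windows 2 kb downstream. The same peak held the palindromic STAT site TTCCCGGAA (consensus TTCCNGGAA), read on both strands 135 bp from the centre, which was present in 2.28% of all peak windows against 1.31% of those 2 kb away. It also held the KLF site GGGCGTGG 110 bp from the centre (KLF sites were GGGTGTGG or GGGCGTGG, in 8.41% of all peak windows against 6.0%). STAT proteins carry the LIF signal and KLF factors support self-renewal in mouse embryonic stem cells.

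The distal peak held neither a composite match nor an octamer, even with 1 mismatch. Of windows of 417 bp around all peaks, 9.94% held a composite match, 14.9% an exact octamer and 62.6% an octamer with up to 1 mismatch, against 0.199%, 2.61% and 37.1% of windows 2 kb away, so many peaks lacked each of them. Its best composite alignment had 4 mismatches, all in the octamer part, which is beyond the limit of 2. The best alignment had 4 mismatches in the peak 18.5 kb downstream as well, all in the SOX part, and 5 in the upstream peak. The share of all peaks with such an alignment was not counted. The alignment of the distal peak, CATTGTTATTTATTT at chr3:34656998-34657012, held the complete SOX part and was centred 25 bp from the peak centre. This SOX site was the one match of that kind in the 4 peaks, with no mismatch allowed. The composite search was less strict, and the SOX part of the proximal downstream match had 1 mismatch. A SOX match was present in 26.8% of windows of 417 bp around all peaks, against 16.7% of windows 2 kb away. The distal peak also held the site AAGGTCA, of the kind bound by orphan nuclear receptors such as ESRRB, 145 bp from its centre (12.0% of all peak windows against 8.65%).

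Of the motifs searched, the weak peaks held octamer-type matches only. In the peak 18.5 kb downstream an exact octamer ATGCAAAT lay on the minus strand at chr3:34567231-34567238, 192 bp from the centre and so near the edge of the peak. Of windows of 485 bp around all peaks, 15.3% held an exact octamer, against 3.08% of those 2 kb away. That position is inside the 485 bp of the whole-series peak and outside the 205 bp called in replicate 2. The upstream peak held no exact octamer and 2 matches with 1 mismatch, ATGCAGAT 7 bp and ATGGAAAT 48 bp from the centre. A match with 1 mismatch is common, at 59.8% of windows of 340 bp around all peaks and 31.7% of those 2 kb away. None of the 4 peaks held the MORE palindrome, which POU homodimers bind and which was present in 2.47 to 2.52% of windows of these lengths around all peaks.

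The peaks differed in base composition. GC content was 39.5% in the proximal downstream peak, and 9.08% of windows of the same length around all peaks had a GC content at or below it. It was 44.4% in the upstream peak, 47.6% in the peak 18.5 kb downstream and 48.4% in the distal peak, near the medians of 45.9 to 46.0% for windows of those lengths.

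**Figure D4:**
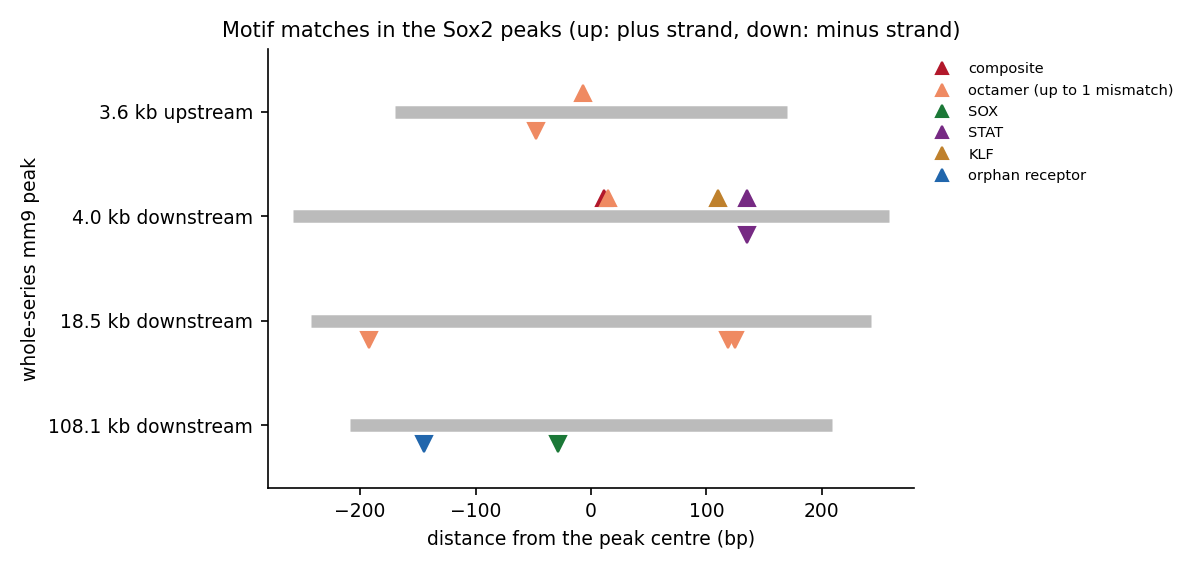
Motif matches in the 4 whole-series mm9 peaks near Sox2, by distance from the peak centre in bp (horizontal axis), with grey bars for the extent of each peak. Triangles pointing up are matches on the plus strand and those pointing down on the minus strand. The composite match of the peak 4.0 kb downstream lies 11 bp from the centre, the SOX match of the distal peak 29 bp from it, and the exact octamer of the peak 18.5 kb downstream 192 bp from it.

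Set against all genes, Sox2 was among those with the more and the stronger peaks. Its 4 whole-series peaks within 150 kb were matched or exceeded by 3.01% of the 22367 protein-coding genes, itself included, and its strongest signal of 19.09 by 0.836%. In the list of replicate 1 these shares were 2.75% (for 2 peaks) and 0.747%, and in that of replicate 2 they were 1.6% (for 5 peaks) and 0.894%. On mm10, over 17492 protein-coding genes with a RefSeq start, 5.5% had at least as many optimal peaks as the 3 of Sox2 and 2.52% at least as many conservative peaks, and 0.835% had a strongest peak at least as high in either list. Neighbouring genes share peaks, so these genes are not independent.

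**Figure D5:**
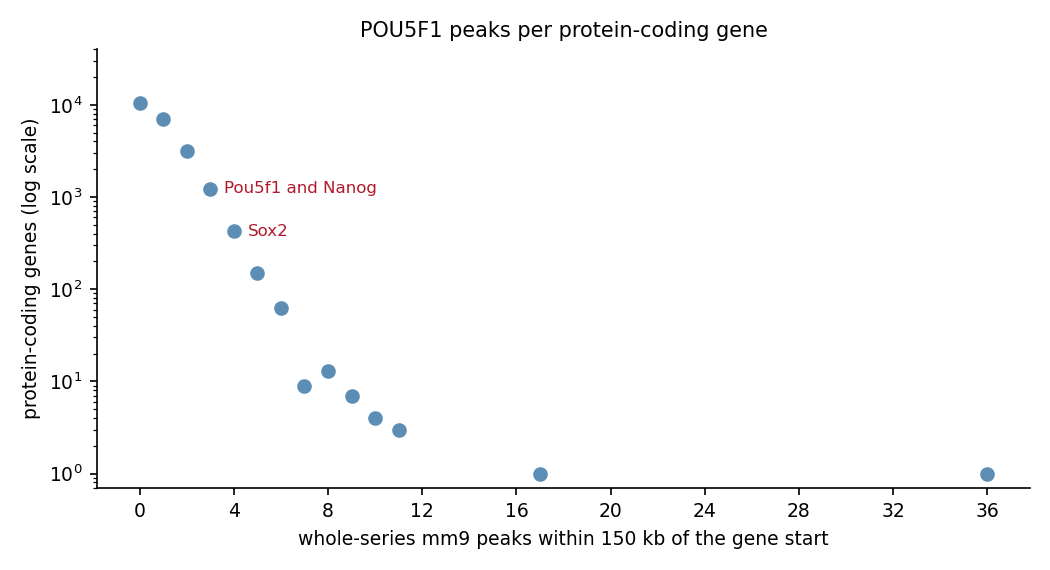
Number of protein-coding genes (vertical axis, log scale) by the number of whole-series mm9 peaks within 150 kb of the gene start (horizontal axis). Of 22367 genes, 10374 had 0 peaks and 425 had 4, Sox2 among them, while Pou5f1 and Nanog had 3 each.

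The other core factor genes had differently placed peaks. Pou5f1 itself had 3 whole-series peaks within 150 kb, the strongest 2.0 kb upstream of its start with a signal of 27.9 and rank 4, and the others 37.4 and 42.8 kb downstream with signals of 6.17 and 5.87. Nanog had 3, at 98.9, 82.9 and 0.1 kb upstream, with signals of 12.33, 12.04 and 9.96. Peaks were assigned by distance alone, and whether those of Pou5f1 and Nanog lie nearer to other genes was not examined. Sox2 had 4 peaks, whose signals spanned 4.24 to 19.09. The signals of the Pou5f1 window spanned 5.87 to 27.9, whereas those of Nanog were close to each other. In the list of replicate 1 all 3 Nanog peaks were present, with signals of 9.33 to 9.44, against 2 of the Sox2 window and 1 of the Pou5f1 window.

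By number of peaks and strongest signal in the 3 mm9 lists, 6 values scaled to their SD over all genes, the genes most like Sox2 and at least 300 kb from it were Cd4 (distance 0.363), Caly (0.382), Rbm33 (0.430), Arg1 (0.494) and BC004004 (0.517). Nanog (1.48) and Pou5f1 (1.71) were farther. The 6 values do not cover position. In the whole-series list none of these 5 genes had a peak within 10 kb of its start or in the window matching the distal control window. Such peaks are uncommon in any gene. Of all genes, 1.51% had one within 1 kb, 2.63% had one 1 to 10 kb downstream and 5.18% had one in that window. Their absence from 5 genes is therefore the usual case. In the list of replicate 2, Arg1 had a weak peak in that window, 101.1 kb downstream with a signal of 5.57 and rank 6217. The strongest whole-series peaks lay 120.6 kb upstream of Cd4, 21.4 kb downstream of Caly, 107.0 kb upstream of Rbm33, 102.1 kb upstream of Arg1 and 81.3 kb upstream of BC004004.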

How the data were processed

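The authors deposited peak lists, on mm9 for replicate 1, replicate 2 and the whole series, and on mm10 as relaxed lists and lists thresholded by irreproducible discovery rate (IDR). The deposited signal of each peak has no stated scaling and was used within a list only. The authors' mm9 lists give −log10 p and a q-value, and the deposited mm10 lists −log10 q and, for IDR lists, a score. Builds are those named in the deposited file descriptions; aligner, peak caller, IDR threshold and how mm9 replicates were combined are not given in the sources used here. Per the same descriptions, the relaxed list of replicate 1 names 1 more source file than that of replicate 2.

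Distances run from peak centre to the most upstream start in GENCODE M1 (NCBIM37) or in RefSeq promoters (GRCm38.p6). Ranks are by signal, ties taking the lowest. Overlap was at least 1 bp. Motifs were searched on both strands of whole mm9 peaks (7 motifs, plus the octamer with 1 mismatch, added after seeing the data), with Python 3.11.15 and pysam 0.24.0, tested on simulated sequences. Shares compare windows of equal length around all peak centres and 2 kb downstream. Named genes were Sox2, its neighbours, Pou5f1, Nanog and the 5 most similar patterns, passing over genes within 300 kb of one already named. Members, motifs and rules were chosen with earlier results of these data known.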

Additional observations from a re-analysis of the deposited data

How the results depend on the processing

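The number of whole-series mm9 peaks in the Sox2 window stayed within 1.5 times of 4 at 50, 100 and 200 kb, with −log10 p of at least 10 in that list and by any base of the peak, and was 2 to 5 in the replicate lists. The share of genes with at least as many peaks moved to 1.14% at 50 kb, 4.01% at 100 kb, 2.28% at 200 kb, 2.55% with −log10 p of at least 10 and 3.43% with any annotated start, and was 1.6 to 2.75% in the replicate lists. The share with as strong a peak moved to 0.322%, 0.577% and 1.21% at 50, 100 and 200 kb. Peaks found in both replicate lists numbered 1 at 50 and 100 kb, which leave out the distal site, and 2 with reciprocal overlap of 50%. The −log10 p limit was not set on the replicate lists, where the distal peak of replicate 1 had 6.352. The composite count was 0 with 1 mismatch and 1 with 3, and 1 in each replicate list. Peaks with an octamer numbered 3, against 1, with 1 mismatch allowed. The distal control window held 1 to 2 peaks in the replicate lists. On mm10 the count of 3 was 3 to 5 in the 3994 strongest relaxed entries of a replicate; the 5 of replicate 1 included 2 sites, 31.7 kb upstream and 14.7 kb downstream, in neither threshold list. No paired analysis was possible because there was 1 group and no test. Depth is unknown, and a site missing from a list is not shown to be unbound: the site 18.5 kb downstream, missing from the mm9 list of replicate 1, ranked 3160 in its relaxed mm10 list.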

Other observations

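Some entries near Sox2 stood high in the relaxed mm10 list of a single replicate. In replicate 1 an entry 31.7 kb upstream of the start ranked 1880 of 300000 with a signal of 14.9, above the site 18.5 kb downstream at rank 3160. It overlapped no entry of replicate 2 and ranked 27393 with both replicates pooled. An entry 14.7 kb downstream ranked 2415 in replicate 1 with a signal of 14.1, 219008 in replicate 2 and 9767 pooled. In replicate 2 the site 95.6 kb downstream ranked 4029 with no entry of replicate 1 there. The relaxed lists held 61 entries in the window for replicate 1 and 72 for replicate 2, and the entries named here were picked after their values had been seen.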
